A study of Homo sapiens with 65 samples.

Results

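Integrins are the cell-surface receptors through which cells hold on to the extracellular matrix, and 10 of their subunit genes were read across 65 RNA-seq libraries of human cardioids. The genes were taken from a named list: the alpha subunits ITGA1, ITGA3, ITGA5, ITGA6, ITGA7, ITGA8, ITGA9 and ITGAV, and the beta subunits ITGB1 and ITGB5. All 10 were found in the count table and all 10 passed the filter on low counts in both arms of the study. They are 10 of 26 integrin genes looked up in a table of 58735 genes. Cardioids are self-organising heart-like aggregates, here of left-ventricular type and grown from WTC-11, an induced pluripotent stem cell line. Each library pooled 8 cardioids.

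The groups were of 2 kinds. In the genotype arm (41 libraries), WT cardioids were set against cardioids of clones labelled HAS2-KO, both taken through the same cardioid differentiation and collected at day 1.5 (5 WT and 6 KO libraries), day 2.5 (6 and 6), day 4.5 (6 and 6) and day 7.5 (3 and 3). WT was represented by the lines named WT, TNT2, WT_TU and cl43_WT_UT, 4 in all, and KO by 4 clones, cl4, cl14, cl46 and cl51. Clone cl4 gave 3 of the 6 KO libraries at each of the first 3 days, so repeats of it are not separate clones. At day 7.5 the KO libraries came from cl4 and cl14 only, and the WT libraries from WT and WT_TU only. Line WT was repeated within the WT group at every day, and WT_TU at days 2.5 and 4.5. In the enzyme arm (24 libraries), cardioids of WT genotype from lines named TNNI1, WT and TNNT2 were untreated, or labelled HAse with a start at day 1.5 (HAse1.5) or day 2.5 (HAse2.5), which is read here as hyaluronidase from the design text. Each enzyme group had 1 library of each line: untreated and HAse1.5 at day 2.5, and all 3 treatments at days 4.5 and 7.5. The dose of the enzyme is not given in the sources used here.

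As background, an integrin is a pair of 1 alpha and 1 beta chain, and the pairing sets which ligand it binds. With ITGB1 as partner, ITGA3, ITGA6 and ITGA7 form laminin receptors, ITGA1 a collagen receptor, ITGA5 the main fibronectin receptor, and ITGA8 and ITGA9 receptors for ligands such as nephronectin and tenascin-C. ITGAV pairs with several beta chains, among them ITGB5, and binds vitronectin and other proteins with an RGD sequence. Hyaluronan is a sugar polymer of the matrix made at the cell surface by synthases such as HAS2, it fills the jelly-like matrix of the early heart, and it binds other receptors than integrins. ITGA7 is the laminin receptor chain known from muscle. Which integrin subunits move when hyaluronan is lost, or when their own ligands move, is the question put to the counts.

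Promoter sequences from RefSeq (build GRCh38.p14) were matched for 7 of the 10 members. A pair is shown because these genes sit at the ends of the time course: ITGA6 was low at first and rose, ITGB5 was high at first and fell. Each line gives the 250 bases before the annotated start, with matches to CANNTG (the E-box pattern) and to GGGCGG or its reverse complement (the SP-type GC box) in capitals. ITGA6 lies at chr2:172427086-172427335 on the plus strand and ITGB5 at chr3:124901419-124901668 on the minus strand.
ITGA6: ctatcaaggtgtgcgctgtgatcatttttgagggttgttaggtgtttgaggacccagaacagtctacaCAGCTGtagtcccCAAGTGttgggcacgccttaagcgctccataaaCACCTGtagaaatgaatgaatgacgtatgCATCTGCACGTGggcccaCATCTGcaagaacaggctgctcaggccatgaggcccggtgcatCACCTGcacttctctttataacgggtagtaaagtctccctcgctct
ITGB5: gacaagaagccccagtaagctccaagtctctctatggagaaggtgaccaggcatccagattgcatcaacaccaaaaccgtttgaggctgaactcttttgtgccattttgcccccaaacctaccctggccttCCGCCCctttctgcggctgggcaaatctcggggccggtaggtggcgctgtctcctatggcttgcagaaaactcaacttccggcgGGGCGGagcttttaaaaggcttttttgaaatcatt
The ITGA6 window held 7 matches to CANNTG, at 182, 169, 136, 107, 101, 89 and 46 bases before the start, and none to the GC box, to GATAA (the GATA pattern) or to GGAATG (the TEAD pattern). The ITGB5 window held 2 matches to the GC box, at 119 and 35 bases before the start, and none to the other patterns. Over 27193 promoters of the same length, 62.2% held CANNTG, 42.3% GGGCGG, 21% GATAA and 11.9% GGAATG, all counted on both strands. Of these, 31 promoters (0.114%) had 7 or more CANNTG matches, a cutoff taken from the ITGA6 window itself. The GC content was 50.8% for ITGA6 and 52.8% for ITGB5, against a median of 57.6%. A match is a run of letters and not a shown binding site.

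Depth and library quality bear on several values below. Total counts ran from 831062 to 3574843 per library (median 1570954), and levels are given as CPM, the count scaled to the library total. The reads come from the 3′ end of each transcript, so a CPM is close to a share of transcripts and was not divided by gene length. In 7 libraries ITGB1 stood at 13.2 to 31.3 CPM, and in the other 58 at 99.9 to 312.0 CPM. Those 7 are the WT_R1 and WT_TU_R1 libraries of days 1.5, 2.5 and 4.5 and the KO cl4_R1 library of day 1.5. They had the highest totals (2724349 to 3574843, against 831062 to 2142900) and the lowest share of reads from mitochondrial genes (0.07% to 0.14%, against 0.17% to 2.39%). All belong to the first of 3 stretches of library numbers in the genotype arm, called block A here (10 libraries); blocks B and C hold the second repeats and all others. Within WT at day 2.5, ITGA5 also stood apart by block, at 245 to 249 CPM in block A and 89.9 to 112 CPM in blocks B and C. Values without block A, an alternative chosen after seeing the data, are given beside the results that it moved. Day 7.5 had WT libraries of blocks A and B only and KO libraries of blocks B and C only, so block and genotype were partly mixed there.

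**Figure D1:**
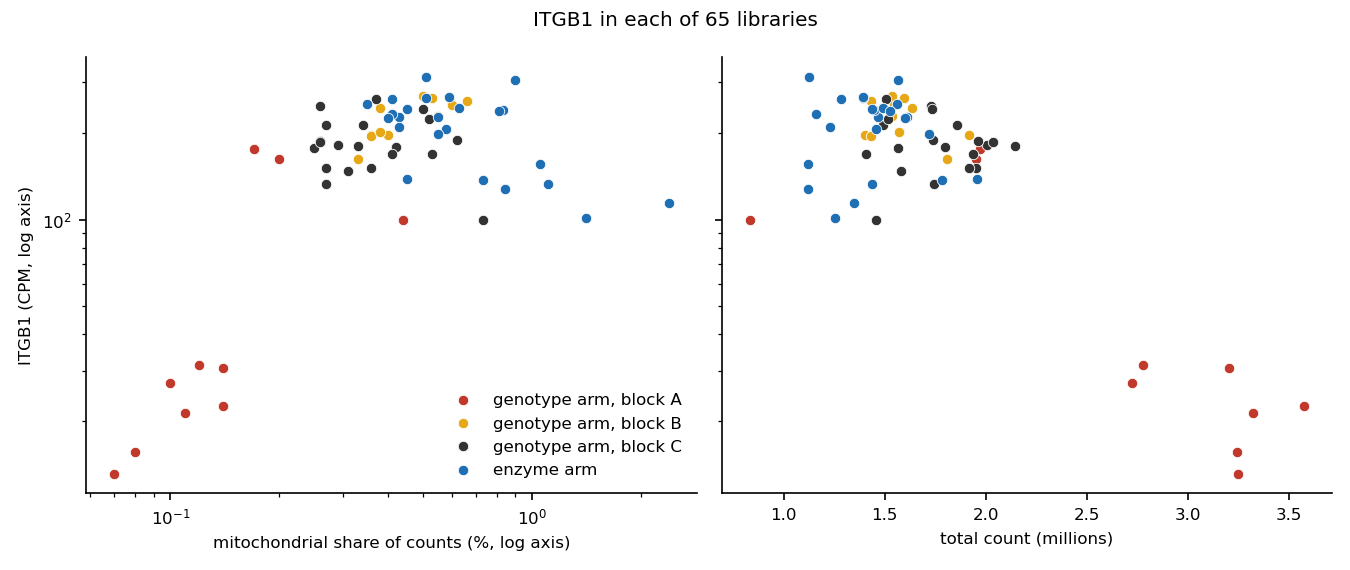
ITGB1 level (CPM, log axis) against the mitochondrial share of counts (percent, log axis, left) and the total count (right), with each point 1 of the 65 libraries and the colour showing the library-number block or the enzyme arm. The 7 libraries at 13.2 to 31.3 CPM are all of block A and have the highest totals, and the other 58 lie between 99.9 and 312.0 CPM.

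HAS2 itself, a hyaluronan synthase, did not tell the genotypes apart: it stood at 87.0 to 869 CPM in the 20 WT libraries (median 361) and 93.9 to 913 CPM in the 21 KO libraries (median 310). A 3′ read checks a knockout label only if the edit removes the 3′ end or the transcript, and the edited position is not given in the sources used here. Summed cardiomyocyte markers (10 genes) were 49.2 to 109 CPM in WT at day 1.5, with TNNI1 and MYH7 at 0, and 29200 to 59600 CPM at day 4.5 with no marker at 0. At day 2.5 these markers already summed to 402 to 2860 CPM in WT, with only MYH7 at 0. The tissue label thus had all 10 of these marker genes from day 4.5 on, and part of them before. In bulk RNA, fewer cells of a type and less RNA per cell cannot be told apart, and p-values measure only the spread between these libraries.

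The mix of integrin chains changed over time. In WT, the laminin receptor chains ITGA6 and ITGA7 rose between day 2.5 and day 4.5, while the fibronectin receptor chain ITGA5, the RGD receptor chain ITGB5 and the tenascin receptor chain ITGA9 fell from day 1.5 to day 2.5 and again to day 4.5. The second fall of ITGA9 was not past the threshold without block A. The untreated cardioids of the enzyme arm, which are other libraries and partly other lines, gave the same directions for ITGA5, ITGA6 and ITGA7.

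ITGA6 (ENSG00000091409, chromosome 2, 172427354 to 172506282 on GRCh38, plus strand) stood at 1.84 to 8.38 CPM in WT at day 2.5 (median 6.65, n = 6) and at 23.1 to 93.3 CPM at day 4.5 (median 53.7, n = 6). ITGA7 (ENSG00000135424, chromosome 12, 55684568 to 55716043, minus strand) stood at 6.28 to 17.0 CPM (median 8.10) and then at 57.3 to 163 CPM (median 72.3). For both genes every day 4.5 library was above every day 2.5 library. The fitted rises in edgeR's quasi-likelihood test were 3.26 ± 0.41 for ITGA6 (log2, SE, adjusted p = 2.7e-08) and 3.31 ± 0.39 for ITGA7 (adjusted p = 8.26e-09). In untreated cardioids of the enzyme arm the same step was 2.99 ± 0.60 (adjusted p = 0.000888) and 3.08 ± 0.43 (adjusted p = 1.08e-05). ITGA7 is overlapped on the other strand by BLOC1S1 (mean count 51.51, against 72.28 for ITGA7) and ITGA6 by PDK1-AS1 (9.82 against 37.23), and PELO lies within ITGA1 on the same strand (18.82 against 53.32). The strand setting of the counting is not given in the sources used here, so reads of such partners cannot be told apart.

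ITGB5 (ENSG00000082781, chromosome 3, 124761948 to 124901418, minus strand) was highest at day 1.5 in WT, at 276 to 512 CPM (median 321, n = 5). It stood at 105 to 185 CPM at day 2.5 and 39.4 to 90.6 CPM at day 4.5, and neither pair of neighbouring days overlapped. The fitted falls were 1.72 and 0.98 on the log2 scale (edgeR adjusted p = 7.02e-07 and 0.0012). ITGA5 (ENSG00000161638, chromosome 12, 54395261 to 54419460, minus strand) stood at 142 to 519, 89.9 to 249 and 24.4 to 81.7 CPM on the same days. It fell by 1.16 and then by 1.58 on the log2 scale (edgeR adjusted p = 0.00551 and 0.000139), with overlap at the first step and none at the second. Its 2 highest day 1.5 and day 2.5 libraries were those of block A. The first of these falls missed the threshold without WT_R1 of day 1.5 (fell by 0.80, edgeR adjusted p = 0.0598). ITGA9 (ENSG00000144668, chromosome 3, 37452115 to 37823514, plus strand) stood at 38.8 to 56.8 CPM at day 1.5 and 2.85 to 16.8 CPM at day 2.5. It fell by 2.44 and, by day 4.5, by a further 1.29 on the log2 scale (edgeR adjusted p = 2.81e-07 and 0.00619). Without block A these falls were 2.29 (edgeR adjusted p = 8.65e-06) and 1.00 (0.0844) on the log2 scale.

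In WT, 3 of the 10 members were past the threshold between days 1.5 and 2.5 (all lower) and 5 of 10 between days 2.5 and 4.5 (2 higher, 3 lower), where 30.1% and 34.5% of all genes tested were. Between days 4.5 and 7.5 no member was (1 at an unadjusted p under 0.05, 0 by DESeq2), against 2.7% of genes. In untreated cardioids 4 of 10 members passed between days 2.5 and 4.5 (23.0% of genes), and none did from day 4.5 to 7.5 (3 at an unadjusted p under 0.05, 2 by DESeq2, 6.39% of genes). The fourth in the untreated step was ITGB1, the common beta chain (ENSG00000150093, chromosome 10, 32900319 to 33005792, minus strand), at 128 to 138 CPM on day 2.5 and 226 to 312 CPM on day 4.5. It rose by 0.81 ± 0.28 (log2, SE, edgeR adjusted p = 0.0356). The ITGB1 call was lost in all 6 fits that left out 1 of the libraries compared, where its adjusted p was 0.0513 to 0.14. In WT, ITGB1 did not pass the same step with block A (0.37, edgeR adjusted p = 0.638) or without it (0.33, 0.0608). With the line as a block ITGA1 passed the untreated step too, at 1.46 (edgeR adjusted p = 0.014, against 0.11 without the block). In WT, ITGA1 passed that step without block A (1.43, edgeR adjusted p = 0.00211), where its block A libraries stood at 3.44 and 3.96 CPM on day 4.5 and the others at 19.4 to 65.3 CPM.

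**Figure D2:**
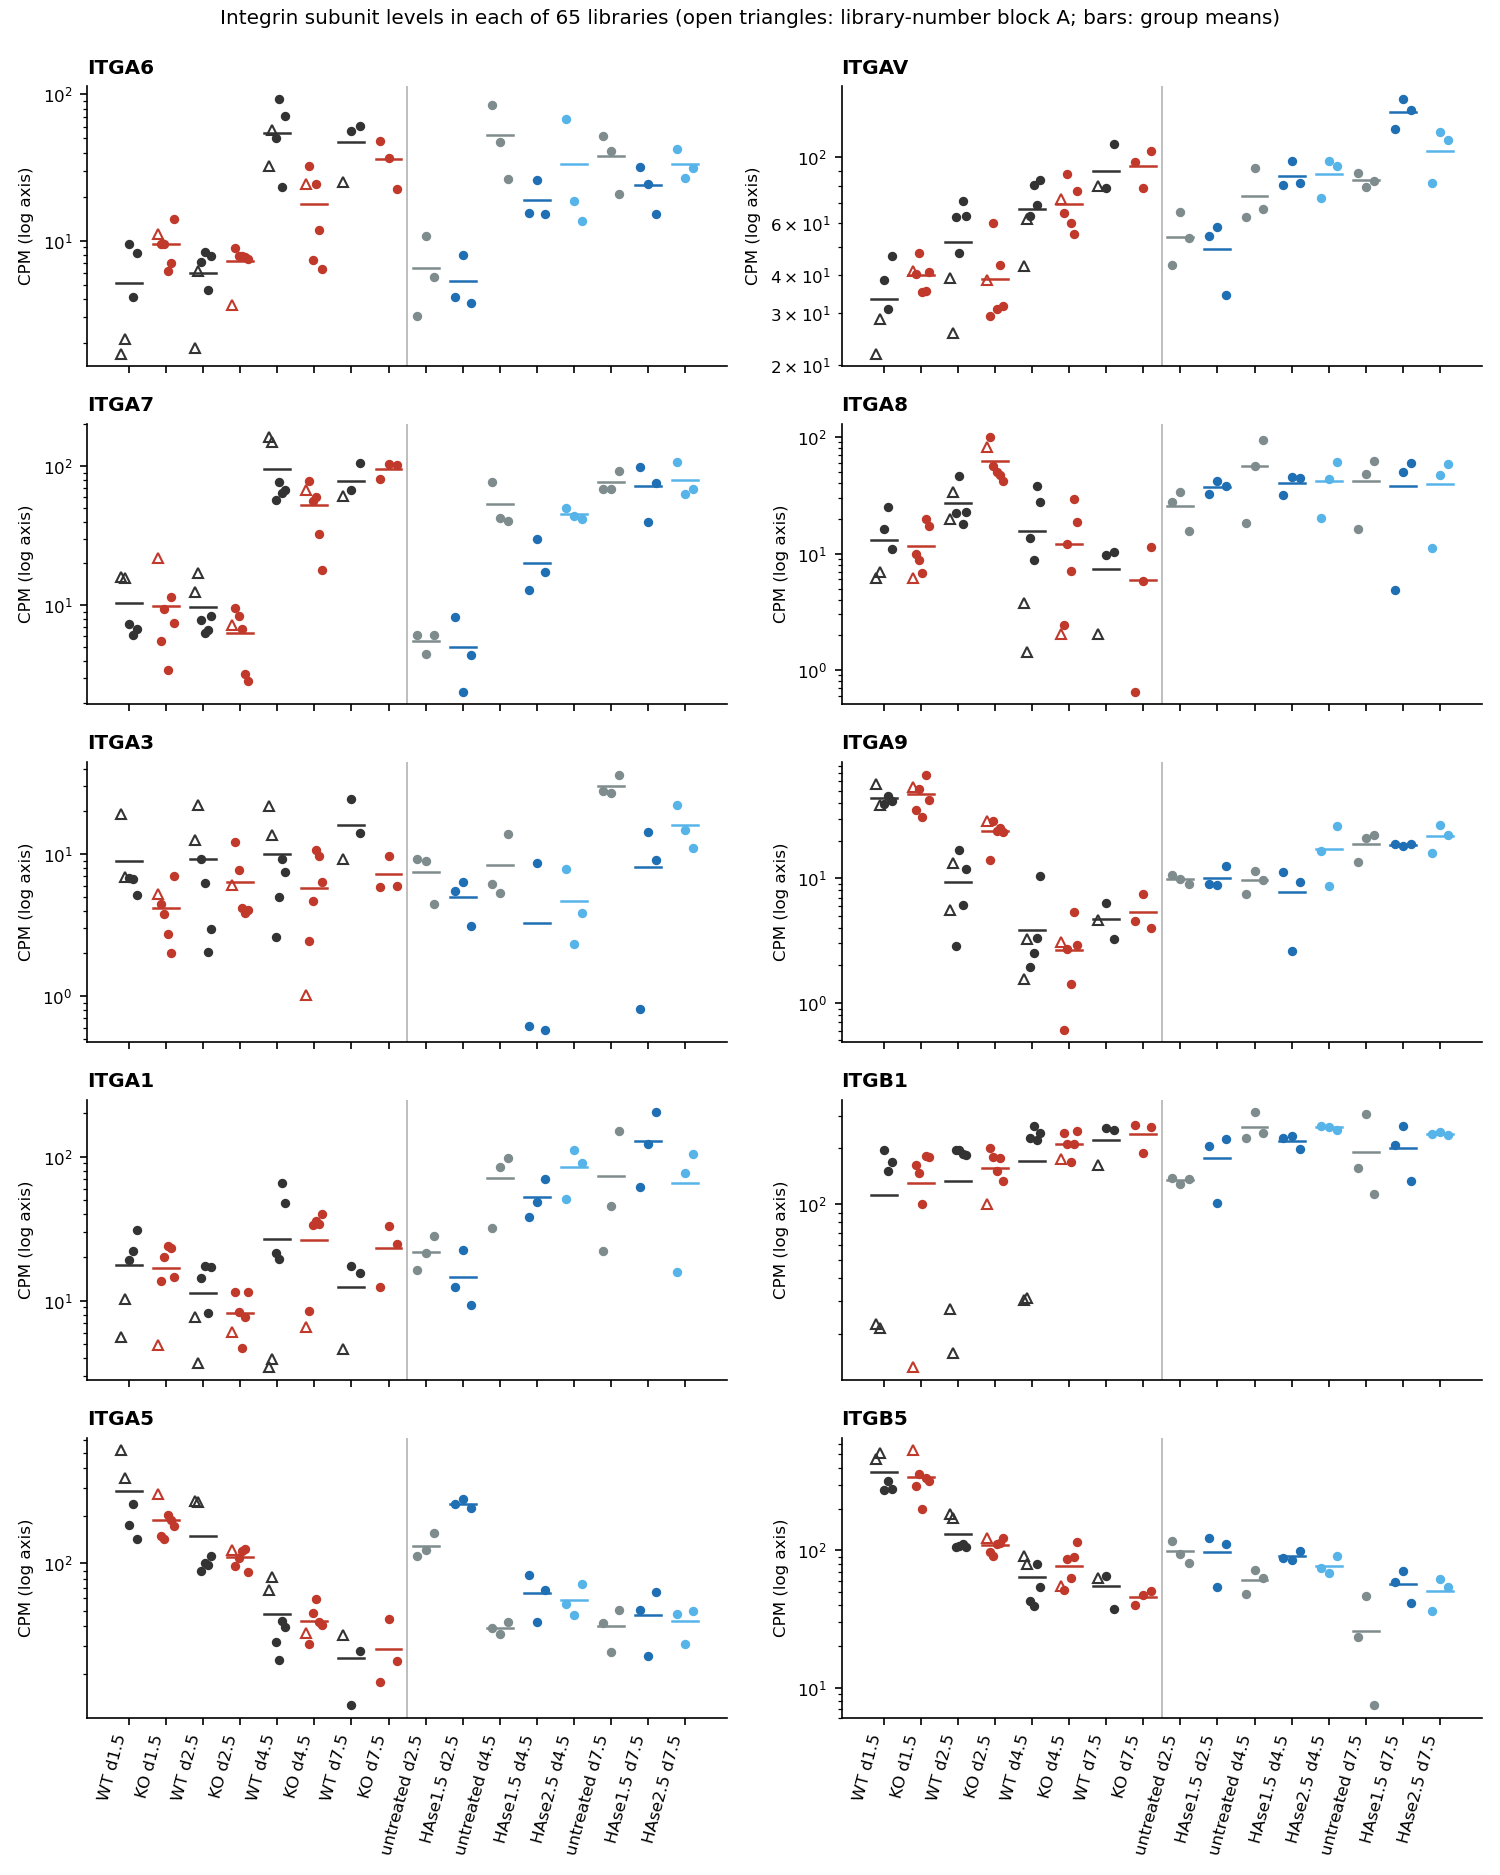
Level of each of the 10 integrin genes (CPM, log axis) in the 16 groups, with 1 point per library, bars for the group means and open triangles for block A libraries. ITGA6 and ITGA7 are low through day 2.5 and high from day 4.5, and ITGA5, ITGB5 and, in the genotype arm, ITGA9 run the other way.

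The same course shows in the make-up of the alpha chains, taken as each gene's share of the reads of the 8 alpha members. ITGA5 held 64.9% ± 13.3 of them in WT at day 1.5 (SD, n = 5), 51.9% at day 2.5 and 14.6% ± 5.41 at day 4.5 (n = 6 each). At day 4.5 ITGA7 held 29.4% and ITGA6 17.2% in WT. Without block A, ITGA5 held 55.9% ± 7.11 (n = 3), 43.3% ± 2.61 and 11.4% ± 2.63 (n = 4 each) on these days, and at day 4.5 ITGA7 held 22% and ITGA6 19.5%. In untreated cardioids at day 4.5 the shares were 10.7% ± 1.23 for ITGA5 and 15.0% for each of ITGA6 and ITGA7 (n = 3). These are shares of 3′ reads and not of protein.

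**Figure D3:**
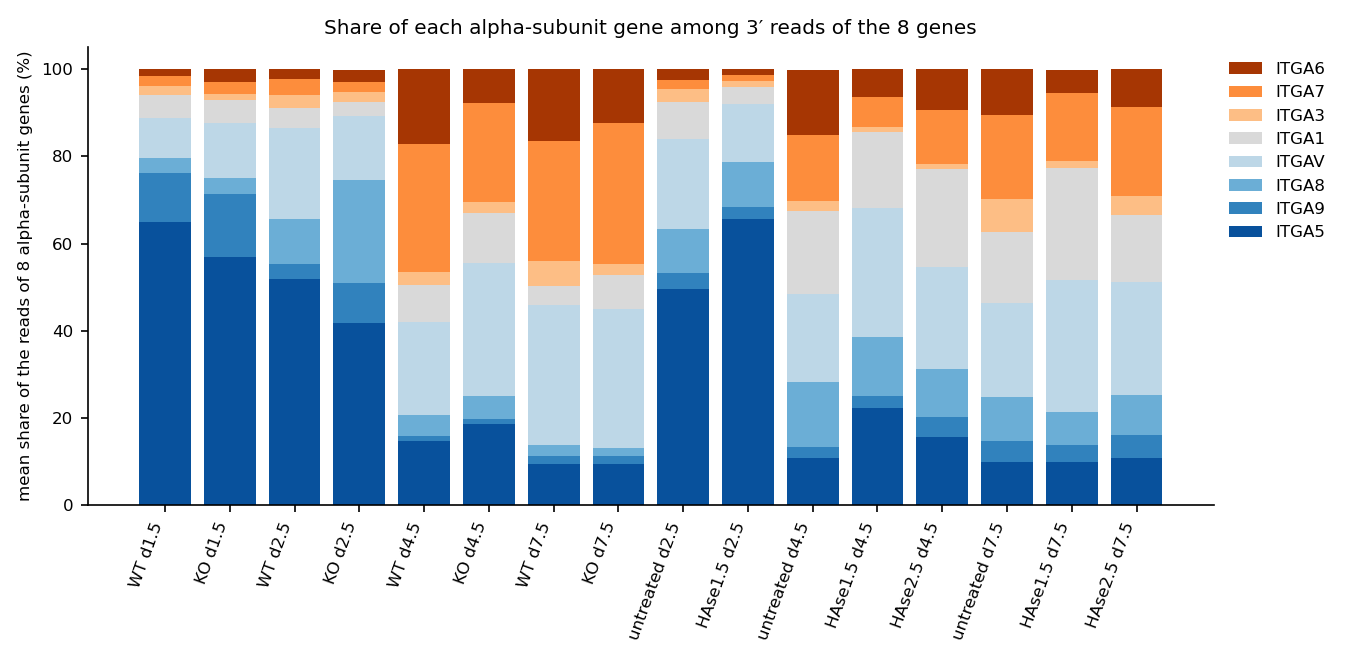
Mean share (percent) of the reads of the 8 alpha integrin genes held by each of them, as 1 stacked bar per group. ITGA5 takes 64.9% in WT at day 1.5 and 14.6% at day 4.5, when ITGA7 takes 29.4% and ITGA6 17.2%.

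In KO cardioids, ITGA6 was lower than in WT at day 4.5 and ITGA9 was higher at day 2.5, and no other member passed the test at any day. ITGA6, a chain of the laminin receptor, was the clearest: its mean was 17.8 ± 10.7 CPM in KO and 54.6 ± 25.7 CPM in WT (SD, n = 6 each). ITGB1 and ITGAV, the chains shared by many receptors, did not pass at any day.

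At day 4.5, ITGA6 stood at 23.1 to 93.3 CPM in WT (median 53.7) and at 6.37 to 32.4 CPM in KO (median 18.0). In KO the clone cl4 gave 24.4, 32.4 and 7.39 CPM, cl14 24.2, cl46 11.8 and cl51 6.37. Of the WT libraries cl43_WT_UT, at 23.1 CPM, lay within the KO range and WT_R1, at 32.5 CPM, just above it. The highest WT libraries were WT_TU_R2 at 93.3 CPM and TNT2 at 71.6 CPM. These levels rest on 35 to 159 counts in WT and 11 to 53 in KO. ITGA6 fell by 1.67 ± 0.37 in KO (log2, SE; edgeR adjusted p = 0.00578). It stayed past the threshold when any 1 of the 12 libraries was left out (-1.94 to -1.46, adjusted p 0.00149 to 0.0252) and without block A (-1.93, adjusted p = 0.000757). Fitted on the libraries of day 4.5 alone it missed it (-1.65, adjusted p = 0.0557), as it did within block C, with 2 WT and 4 KO libraries (-1.99, adjusted p = 0.173).

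At the other days the ITGA6 difference between KO and WT was 0.99 at day 1.5, 0.30 at day 2.5 and -0.43 at day 7.5 (log2), none past the threshold. The test of a change of the KO effect over the days gave an edgeR adjusted p of 0.0427 for ITGA6, the 1 of 10 members that passed it (0.674% of genes did). Without block A this p was 0.0544. ITGA7, its muscle counterpart, was at 18.0 to 78.8 CPM in KO and 57.3 to 163 CPM in WT at day 4.5, with overlap, a difference of -0.97 ± 0.35 and an edgeR adjusted p of 0.115. Without block A the difference was -0.50 (95% interval -1.04 to 0.04, edgeR adjusted p = 0.334). Its highest WT libraries, at 148 and 163 CPM, were those of block A, and the other WT libraries stood at 57.3 to 77.6 CPM.

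At day 2.5, ITGA9 stood at 5.51, 13.3, 2.85, 16.8, 6.12 and 11.8 CPM in WT (WT_R1, WT_TU_R1, WT_R2, WT_TU_R2, cl43_WT_UT and TNT2). In KO it stood at 28.9, 14.0 and 28.9 CPM in repeats 1 to 3 of cl4, 24.0 in cl14, 25.5 in cl46 and 23.5 in cl51. Every KO library but the second of cl4 was above every WT library. The counts behind these levels were 4 to 43 in WT and 22 to 52 in KO. ITGA9 rose by 1.30 ± 0.33 in KO (log2, SE, edgeR adjusted p = 0.0387). The call was a narrow one: in 9 of the 12 fits without 1 library it missed the threshold, and it passed only when WT_TU_R1, WT_TU_R2 or cl4_R2 was the one left out (adjusted p 0.015 to 0.144 over the 12). Without block A the difference was 1.28 (adjusted p = 0.0525), and within block C 1.47 (adjusted p = 0.00409). Summed primitive streak and early mesoderm markers (8 genes) moved the same way at this day, 152 to 239 CPM in KO against 54.6 to 133 CPM in WT, with MSGN1 at 0 in both and TBXT at 0 in WT. Their part in the result was not tested.

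ITGA8 (ENSG00000077943, chromosome 10, 15513949 to 15720125, minus strand), which pairs with ITGB1 to bind nephronectin, showed a difference that the main fit did not pass. It stood at 41.9 to 101 CPM in KO (median 53.1) and 17.8 to 46.1 CPM in WT (median 22.4) at day 2.5, where the highest WT library, WT_TU_R2, lay within the KO range. The difference was 1.17 (log2, edgeR adjusted p = 0.373). Within block C it was 1.25 with an adjusted p of 0.000469, and on the libraries of this day alone the adjusted p was 0.0394. ITGAV (ENSG00000138448, chromosome 2, 186590065 to 186680901, plus strand) was at 29.3 to 60.0 CPM in KO and 25.6 to 71.4 CPM in WT (-0.44, adjusted p = 0.434). Without block A its difference was -0.68 (adjusted p = 0.045) and within block C -0.73 (adjusted p = 0.0404).

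Counted over the list, 1 of 10 members passed at day 2.5 (higher) and 1 of 10 at day 4.5 (lower), against 0.993% and 3.74% of all 13797 genes tested. None passed at day 1.5, where 0.0% of genes did by edgeR or by DESeq2 (2 members at an unadjusted p under 0.05), nor at day 7.5, where 0.348% did (0 members at an unadjusted p under 0.05 and 0 by DESeq2). No member had KO and WT libraries that did not overlap at any day, a state found in 0.138%, 1.82%, 2.44% and 16.8% of genes at days 1.5, 2.5, 4.5 and 7.5. The median difference of the members was -0.37 at day 2.5 and -0.33 at day 4.5, beside 0.01 and -0.03 over all genes (log2). These medians include block A, which moved several members at day 2.5. Without it ITGA3 went from -0.63 to 0.34, ITGA5 from -0.50 to 0.07, ITGB5 from -0.31 to -0.02 and ITGA7 from -0.72 to -0.27. In the other direction, ITGA1 went from -0.44 to -0.73 and ITGAV from -0.44 to -0.68. The day 2.5 median is thus not a shift shared by the members in all blocks. For ITGB1 the 95% interval of the KO difference ran from -0.86 to 1.28 at day 2.5 and from -0.81 to 1.32 at day 4.5, with block A included. Without block A the differences were -0.20 (-0.48 to 0.07) and -0.21 (-0.48 to 0.06), on the other side of 0 from the 0.21 and 0.25 with it. For ITGAV at day 4.5 it ran from -0.42 to 0.39. The remaining members, ITGA1 (ENSG00000213949, chromosome 5, 52787896 to 52959210, plus strand) and ITGA3 (ENSG00000005884, chromosome 17, 50055968 to 50090481, plus strand), a collagen and a laminin receptor chain, passed at no day.

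**Figure D4:**
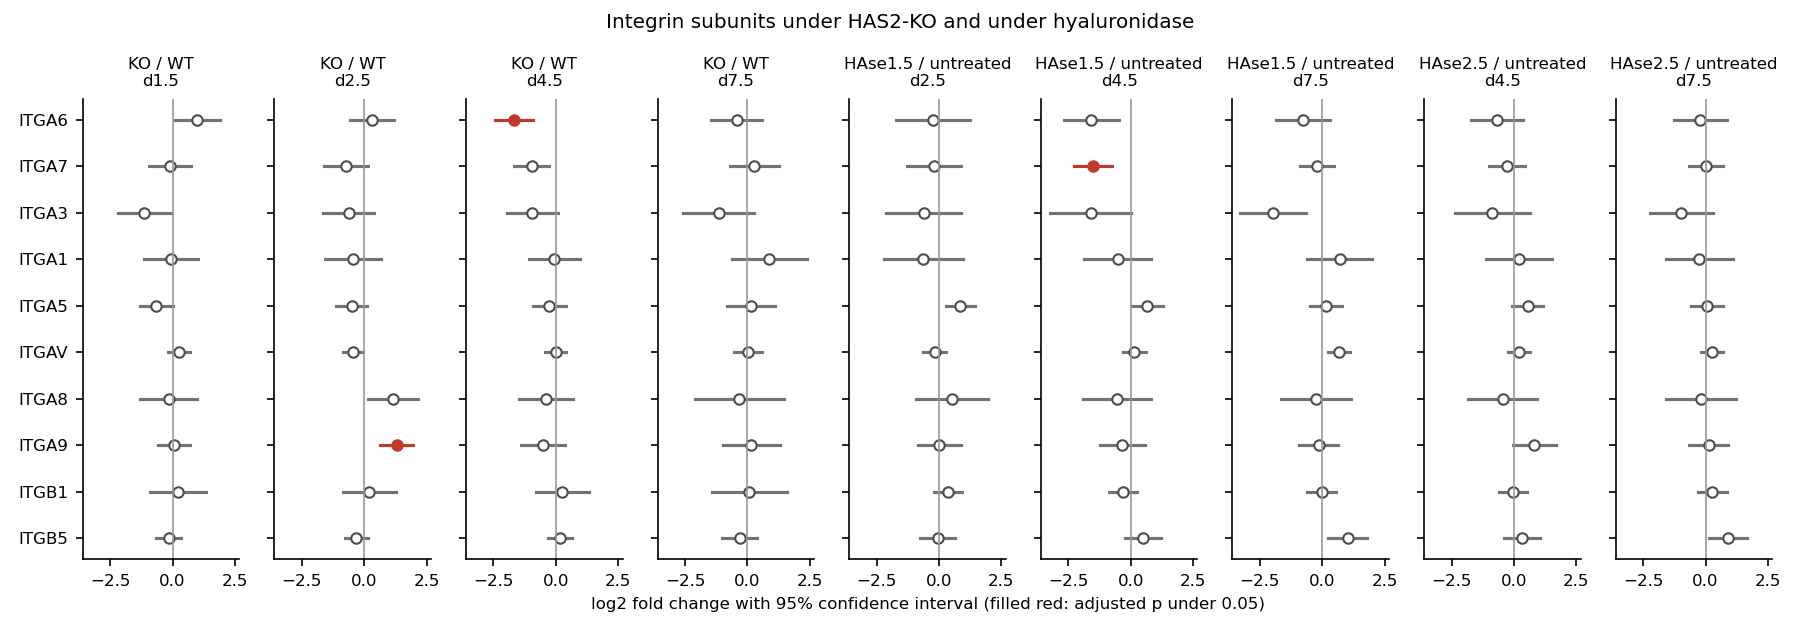
Difference in log2 level of each of the 10 integrin genes, KO against WT and enzyme against untreated, by day, with 95% intervals and filled points for an adjusted p under 0.05. The filled points are ITGA9 in KO at day 2.5, ITGA6 in KO at day 4.5 and ITGA7 after HAse1.5 at day 4.5.

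Hyaluronidase from day 1.5 left ITGA7 lower at day 4.5, and it was the only member past the threshold in any of the 5 comparisons with untreated cardioids. ITGA6 lay the same way at that day without passing. ITGA5 stood higher than in untreated cardioids in all 3 lines at day 2.5 and day 4.5, and its day 2.5 difference passed with the line as a block or with no filter on low counts, not in the main fit.

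At day 4.5 ITGA7 stood at 76.4, 42.6 and 40.3 CPM in untreated cardioids (lines TNNI1, WT and TNNT2) and at 13.0, 30.2 and 17.5 CPM after HAse1.5. All treated libraries were below all untreated ones. ITGA7 fell by 1.51 ± 0.37 (log2, SE; edgeR adjusted p = 0.0209). It missed the threshold without untreated TNNI1 (fell by 1.12, adjusted p = 0.2), without treated TNNI1 (fell by 1.26, adjusted p = 0.148), without treated TNNT2 (fell by 1.40, adjusted p = 0.119) and on the libraries of these groups alone (adjusted p = 0.0547). ITGA6 stood at 83.9, 47.1 and 26.4 CPM in the same untreated libraries and at 15.5, 25.9 and 15.1 CPM after HAse1.5. It was lower in 3 of 3 lines and its groups did not overlap, but the treated WT line at 25.9 CPM lay next to untreated TNNT2 at 26.4 CPM. The difference was -1.58 ± 0.53 (edgeR adjusted p = 0.115), or 0.00104 with no filter on low counts. By day 7.5 ITGA7 stood at 39.5 to 99.4 CPM after HAse1.5 and 68.7 to 92.0 CPM untreated, with overlap.

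At day 2.5 ITGA5 stood at 238, 256 and 223 CPM after HAse1.5 and at 111, 122 and 155 CPM untreated, in the order TNNI1, WT and TNNT2. The groups were apart, and ITGA5 held 65.6% ± 2.28 of the alpha reads with enzyme and 49.5% ± 5.97 without (SD, n = 3). The difference was 0.85 ± 0.28 with an edgeR adjusted p of 0.178. With the line as a block it was 0.89 with an adjusted p of 0.0375, and with no filter on low counts the adjusted p was 0.0329. At day 4.5 the untreated libraries held 38.9, 35.5 and 42.4 CPM and the HAse1.5 libraries 83.8, 42.3 and 68.1 CPM, and the treated WT line lay just below the highest untreated library. Primitive streak and early mesoderm markers at day 2.5 summed to 238 to 502 CPM with enzyme and 72.4 to 132 CPM without. Their part in the ITGA5 level was not tested.

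At day 7.5 the laminin receptor chain ITGA3 stood at 27.7, 26.8 and 36.4 CPM untreated and at 0.815, 14.4 and 9.06 CPM after HAse1.5, which rest on 31 to 49 and on 1 to 20 counts. All treated libraries were lower, with a difference of -1.99 ± 0.64 (edgeR adjusted p = 0.095, DESeq2 adjusted p = 0.0433). ITGAV stood at 88.3, 79.1 and 83.1 CPM untreated and at 124, 157 and 144 CPM after HAse1.5, also with no overlap (0.65 ± 0.21, edgeR adjusted p = 0.0979). ITGB5, a partner of ITGAV, stood at 23.2, 46.6 and 7.42 CPM untreated and at 58.7, 70.5 and 41.1 CPM after HAse1.5. It was higher in 3 of 3 lines, but the untreated WT line lay within the treated range (1.01, 95% interval 0.23 to 1.79, edgeR adjusted p = 0.161). Without the untreated WT line, ITGB5 passed (1.79, edgeR adjusted p = 0.00882). ITGAV and ITGB5 thus lay above the untreated level and ITGA3 below it at this day, none past the threshold in the main fit. Of the other laminin receptor chains, ITGA6 was lower in 3 of 3 lines and ITGA7 in 2 of 3. ITGA5 was higher in 2 of 3 lines and ITGA8 in 1 of 3, so no receptor class is read from these values. Markers of 2 cell types were lower in the same libraries. Summed cardiomyocyte markers were at 30800 to 35000 CPM after HAse1.5 and 62300 to 73000 CPM untreated, with 4 of 10 lower (ACTN2, MYH7, MYL7 and TNNC1) and none at 0. Summed endoderm markers (10 genes, 8 tested) were at 46.0 to 104 CPM against 127 to 549 CPM, with 3 lower (AFP, APOB and FGB) and with AFP and FOXA1 at 0 after HAse1.5. Over all genes tested, 3.33% passed in this comparison, beside these marker counts. Their part in the integrin levels was not tested.

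Counted over the list, the enzyme from day 1.5 gave 0 of 10 members past the threshold at day 2.5 (1 at an unadjusted p under 0.05, 0 by DESeq2), 1 of 10 at day 4.5 and 0 of 10 at day 7.5 (3 at an unadjusted p under 0.05, 1 by DESeq2). The shares over all 12748 genes tested were 1.15%, 3.48% and 3.33%. Groups did not overlap for 1 member at day 2.5 (ITGA5), 3 at day 4.5 (ITGA6, ITGA7 and ITGB5) and 2 at day 7.5 (ITGA3 and ITGAV), and for 13.5%, 21.6% and 17.7% of genes. The members' counts of groups apart were therefore near the background. ITGB5 at day 4.5 stood at 85.6 to 98.9 CPM treated and 47.8 to 71.9 CPM untreated, a difference of 0.51 (edgeR adjusted p = 0.614). The median over the members at day 4.5 was -0.43, beside 0.02 over all genes (log2).

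With the enzyme from day 2.5, no member passed at day 4.5 (0 at an unadjusted p under 0.05, 0 by DESeq2) or day 7.5 (1 at an unadjusted p under 0.05, 0 by DESeq2), where 0.22% and 0.659% of genes did by edgeR. ITGA7 at day 4.5 stood at 50.3, 43.7 and 41.7 CPM, within the untreated range. ITGA6 stood at 67.6, 18.7 and 13.5 CPM, in each of the 3 lines below its own untreated library, with overlap between the groups. Groups were apart for ITGA5 at day 4.5 (55.3, 46.8 and 73.7 CPM) and ITGA3 at day 7.5 (22.1, 14.8 and 11.1 CPM), 1 of 10 members each day, against 16.5% and 16.9% of genes. Set directly against each other at day 4.5, HAse1.5 was below HAse2.5 for ITGA7 by 1.23 ± 0.37 (log2, edgeR adjusted p = 0.171) and for ITGA9 by 1.16 (adjusted p = 0.268). No member passed that comparison at day 4.5 (2 at an unadjusted p under 0.05, 0 by DESeq2; 0.361% of genes) or day 7.5 (0 and 0; 0.00784% of genes).

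The KO and HAse1.5 effects were also compared with each other in a single fit of all 65 libraries. No member's effects differed past the threshold at day 2.5, 4.5 or 7.5 (2, 0 and 1 at an unadjusted p under 0.05), where 0.0925%, 0.271% and 0.0925% of 14047 genes did. DESeq2 was not run on this fit. For ITGA6 at day 4.5 the KO effect minus the enzyme effect was -0.07 ± 0.66, and for ITGA7 0.56 ± 0.59 (log2, SE). For ITGA5 at day 2.5 it was -1.40 ± 0.50 (edgeR adjusted p = 0.624), for ITGA9 at day 2.5 1.26 ± 0.57 (0.918) and for ITGB5 at day 7.5 -1.32 ± 0.53 (0.579).

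Several genes of laminin chains and of other basement membrane proteins were lower. Of 17 laminin and basement membrane genes tested (22 listed), 5 were lower at day 4.5 and 6 at day 7.5 after HAse1.5, and none was higher. Over all genes tested, 3.48% and 3.33% passed in these comparisons. In KO, 2 of the 17 were lower at day 4.5, where 3.74% of all genes passed. None passed at the other days (1, 6 and 4 at an unadjusted p under 0.05 at days 1.5, 2.5 and 7.5). The list's median difference after HAse1.5 was -0.42 at day 4.5 and -0.60 at day 7.5, beside 0.02 over all genes on both days (log2). At day 7.5 these falls went with the lower cardiomyocyte and endoderm markers given above. With the later start at day 7.5, 3 of 8 endoderm markers and 1 of 10 cardiomyocyte markers were lower as well, against 0.659% of all genes passing. The markers' part in these falls was not tested.

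LAMA1, the alpha chain of the early-embryo laminin, moved first: after HAse1.5 it was at 50.0 to 52.2 CPM at day 2.5, against 250 to 296 CPM untreated (fell by 2.41, SE 0.24, edgeR adjusted p = 2.02e-06). At day 4.5 it was at 43.7 to 61.4 CPM against 121 to 199 CPM (fell by 1.86, SE 0.24, adjusted p = 0.0001), and with the later start at 69.7 to 80.4 CPM (fell by 1.26, adjusted p = 0.0152). The call with the later start was lost in 5 of 6 fits without 1 library (adjusted p 0.01 to 0.134). In KO LAMA1 did not pass at day 4.5, and its KO difference lay 2.34 ± 0.45 above the HAse1.5 difference at that day (log2, SE; adjusted p = 0.00594). The same test gave 1.87 for COL18A1, a basement membrane collagen (adjusted p = 0.00903). LAMA2, the alpha chain of muscle laminin, fell in both: at day 4.5 it was at 0.712 to 7.94 CPM in KO and 5.93 to 28.2 CPM in WT (fell by 2.13, SE 0.46, edgeR adjusted p = 0.00406). After HAse1.5 it was at 7.67 to 21.6 CPM at day 7.5 against 74.2 to 152 CPM (fell by 3.24, SE 0.50, adjusted p = 0.000435). HSPG2, which encodes perlecan, fell by 1.12 in KO at day 4.5 (adjusted p = 0.0191), a call lost without WT_R1, WT_TU_R1, cl46 or cl51 (adjusted p 0.0542 to 0.072). COL4A1 and COL4A2, the main chains of the basement membrane network, fell by 2.49 and 2.21 after HAse1.5 at day 7.5 (edgeR adjusted p = 0.000137 and 0.000389). With the later start COL4A1 fell by 1.52 and LAMB1, a laminin beta chain, by 1.44 at that day (adjusted p = 0.0303 and 0.0174). These later-start calls were lost in 5 and 2 of 6 fits without 1 library.

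Of the 10 fibrillar and related collagen genes, ligands of ITGA1 with ITGB1, COL2A1 was the one that fell in both arms. In KO at day 4.5 it was at 104 to 146 CPM against 314 to 690 CPM in WT (fell by 1.96, SE 0.20, edgeR adjusted p = 1.37e-08), and it was lower too at day 2.5 (fell by 0.77, adjusted p = 0.0477) and day 7.5 (fell by 1.44, adjusted p = 0.00399). The day 2.5 call was lost in 10 of 12 fits without 1 library (adjusted p 0.0327 to 0.119), and the day 7.5 call in 2 of 6 (0.0171 to 0.065). After HAse1.5 COL2A1 fell by 3.35 at day 2.5, 2.70 at day 4.5 and 2.76 at day 7.5 (adjusted p = 0.00359, 0.00288 and 0.00323). With the later start it fell by 2.56 at day 4.5 (edgeR adjusted p = 0.028), a call lost in 5 of 6 fits without 1 library (adjusted p 0.0353 to 0.205). COL5A1, COL6A1 and COL6A3 were lower beside COL2A1 at day 4.5 after HAse1.5, 4 of 10 in all, where 3.48% of all genes passed. COL6A3 was at least 6.54-fold lower since its treated libraries were at the floor of 3 counts. The calls of COL5A1, COL6A1 and COL6A3 were lost in 2, 4 and 5 of 6 fits without 1 library. ITGA1, the collagen receptor chain, did not pass, at 37.9 to 70.4 CPM treated and 32.1 to 98.1 CPM untreated at that day. COL5A1 rose by 0.84 at day 7.5 with the later start (adjusted p = 0.0386). All 6 fits without 1 library lost that call (adjusted p 0.0516 to 0.131).

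Among RGD-type and other ligands, fibronectin (FN1), the ligand of ITGA5, went the other way. It was at 5130 to 7890 CPM in KO and 1730 to 5800 CPM in WT at day 4.5 (rose by 0.81, edgeR adjusted p = 0.0405), a call that 8 of 12 fits without 1 library lost (adjusted p 0.00995 to 0.102). After HAse1.5 it was at 3730 to 4830 CPM at day 7.5 against 452 to 1270 CPM untreated (rose by 2.23, SE 0.39, adjusted p = 0.00209). ITGA5 itself was at 25.9 to 65.5 CPM and 27.4 to 50.4 CPM in those libraries. In KO, 2 of 20 genes of this list were lower at day 2.5, where 0.993% of all genes passed. TGFB2 fell by 2.58 (edgeR adjusted p = 0.0305), a call lost in 7 of 12 fits without 1 library. TNC, tenascin-C, a ligand of ITGA9, fell by 1.38 (adjusted p = 0.0412) on the day ITGA9 rose. That call too was lost in 9 of 12 fits without 1 library (adjusted p 0.00934 to 0.132). At day 4.5 3 of 20 passed, against 3.74% of all genes: FN1 higher, and CCN2 and FRAS1 lower by 3.26 and 1.23 (adjusted p = 0.00208 and 6.93e-05). FRAS1, a basement membrane protein, also fell by 2.06 with the later enzyme start at day 4.5 (adjusted p = 0.0414). That FRAS1 call was lost in 5 of 6 fits without 1 library (adjusted p 0.0428 to 0.232). After HAse1.5, 1 of 18 passed at day 2.5, 2 at day 4.5 and 4 at day 7.5, against 1.15%, 3.48% and 3.33% of all genes. THBS1, thrombospondin 1, was lower at day 2.5, with all treated libraries at 0 and the untreated ones at 3.57 to 7.15 CPM. It was at least 2.58-fold lower against the floor of 3 counts (edgeR adjusted p = 0.0373), a call that 5 of 6 fits without 1 library lost (adjusted p 0.0434 to 0.163). At day 7.5 THBS1 was higher, at 28.8 to 97.8 CPM against 11.6 to 14.1 CPM (rose by 2.03, adjusted p = 0.0251). At day 4.5 CCN2 was lower, by at least 5.24-fold (adjusted p = 0.0131), and EMILIN1 higher, by 2.36 on the log2 scale (adjusted p = 0.0208). FN1 and EMILIN1 were higher and FRAS1 lower at day 7.5. The EMILIN1 call of day 7.5 was lost in 5 of 6 fits without 1 library (adjusted p 0.0477 to 0.201).

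Of the proteins that bind integrins inside the cell, ITGB1BP2 (melusin), which binds the tail of ITGB1 in muscle, fell in both arms. At day 4.5 it was at 2.33 to 14.7 CPM after HAse1.5 and 40.9 to 126 CPM untreated (fell by 3.19, SE 0.48, edgeR adjusted p = 0.000328), and it was lower than with the later start by 2.84 (adjusted p = 0.0111). In KO it was at 15.6 to 99.0 CPM against 38.9 to 206 CPM (fell by 1.44, adjusted p = 0.0441), and 8 of 12 fits without 1 library lost that call (adjusted p 0.0121 to 0.131). LIMS2, of the complex that links integrins to actin, fell by 2.73 in KO at day 4.5 (adjusted p = 0.00303) and by 4.09 after HAse1.5 at day 7.5 (adjusted p = 0.00118). TLN2, the talin of muscle, fell by 1.51 after HAse1.5 (SE 0.22, adjusted p = 0.000204) and by 1.19 with the later start at day 7.5 (adjusted p = 0.0127). FERMT2, a kindlin, rose by 1.22 after HAse1.5 at day 2.5 (adjusted p = 0.00331), the 1 of 23 tested that passed at that day (1.15% of genes). At days 4.5 and 7.5, 4 and 2 of 23 were lower and none higher (3.48% and 3.33%). In KO, 1 of 25 was lower at day 2.5 and 3 at day 4.5, none higher (0.993% and 3.74%). VCL was lower in KO at day 2.5 (-0.62, edgeR adjusted p = 0.0325) and after HAse1.5 at day 4.5 (-0.9, 0.0232). Those calls were lost in 8 of 12 and 4 of 6 fits without 1 library. ACTN4 was lower in KO at day 4.5 (-1.46, 0.0177), lost in 4 of 12.

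Over these ligand and adaptor lists and the other integrins, the main fit made 14 calls in KO, 33 after HAse1.5 and 8 after HAse2.5. Of these, 5, 19 and 0 stayed past the threshold whichever library was left out, so each call with the later start was lost in at least 1 such fit. With the line as a block, none of the 33 and 8 enzyme calls was lost.

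Of the 16 other integrin genes, 3 passed the filter on low counts, and 1 passed a test of KO or enzyme. ITGA2, a second collagen receptor chain, was at 0.0 to 1.78 CPM untreated and 8.63 to 34.2 CPM after HAse1.5 at day 7.5, where 3.33% of all genes passed. With the untreated libraries at the floor of 3 counts it was at least 9.15-fold higher (edgeR adjusted p = 0.00648), and it stayed past the threshold in all 6 fits without 1 library (adjusted p 0.00468 to 0.0317).

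The ITGA6 and ITGA7 differences of day 4.5 went with lower cardiomyocyte markers. The 10 markers summed to 16000 to 42300 CPM in KO (median 29900) and 29200 to 59600 CPM in WT (median 40100), and 4 of 10 were lower (ACTN2, MYH7, MYL7 and TNNC1). After HAse1.5 they summed to 5230 to 19300 CPM against 24100 to 47400 CPM untreated, with 8 of 10 lower, and with the later start to 18100 to 32300 CPM. Over all genes tested, 3.74% passed in KO and 3.48% after HAse1.5 at this day. Taken per 1000 CPM of these markers, ITGA6 was 1.28 ± 0.493 CPM in WT (0.665 to 1.96) and 0.582 ± 0.208 CPM in KO (0.261 to 0.772; SD, n = 6 each). After HAse1.5 this ratio was 1.34 to 2.97, after HAse2.5 0.707 to 2.09 and untreated 1.10 to 1.77. For ITGA7 the ratio was 1.03 to 5.17 in WT (median 1.67) and 1.12 to 1.99 in KO (median 1.83). The top of that WT range came from the block A libraries WT_R1 and WT_TU_R1, with ITGA7 at 163 and 148 CPM. With HAse1.5 the ITGA7 ratio was 1.57 to 2.49, against 1.42 to 1.68 untreated. The ratio was set up with the marker levels known and no test was made of it. The sum is weighted to its most abundant genes, TTN, MYH6 and TNNT2 (means of 20300, 7130 and 5020 CPM in WT), none of them called lower in KO. The 4 markers called lower had KO differences of -1.47 (ACTN2), -1.5 (MYH7), -3.45 (MYL7) and -1.68 (TNNC1), beside -1.67 for ITGA6 (log2). The ratio therefore does not show that ITGA6 fell further than those 4 markers. Of the 8 epicardial or fibroblast markers 1 passed the filter on low counts, PDGFRA, a growth factor receptor of mesenchymal cells. It stood at 335 to 486 CPM in KO and 126 to 284 CPM in WT at day 4.5 (rose by 1.08, edgeR adjusted p = 0.0019), and at 328 to 512 CPM in WT at day 2.5. Of 9 endoderm markers tested, EPCAM was higher in KO at day 4.5 (20.5 to 29.9 CPM against 2.50 to 11.9 CPM, adjusted p = 0.000722). Of 8 tested after HAse1.5, APOA1 was lower at that day (adjusted p = 0.0155). Of 8 pluripotency markers tested in KO at day 4.5, 3 were higher and 1, TDGF1, was lower. The higher ones were L1TD1 (19.6 to 65.4 CPM against 2.81 to 20.8 CPM) and NANOG and ZFP42, both at 3.05 CPM or less. Their part in the integrin levels was not tested.

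**Figure D5:**
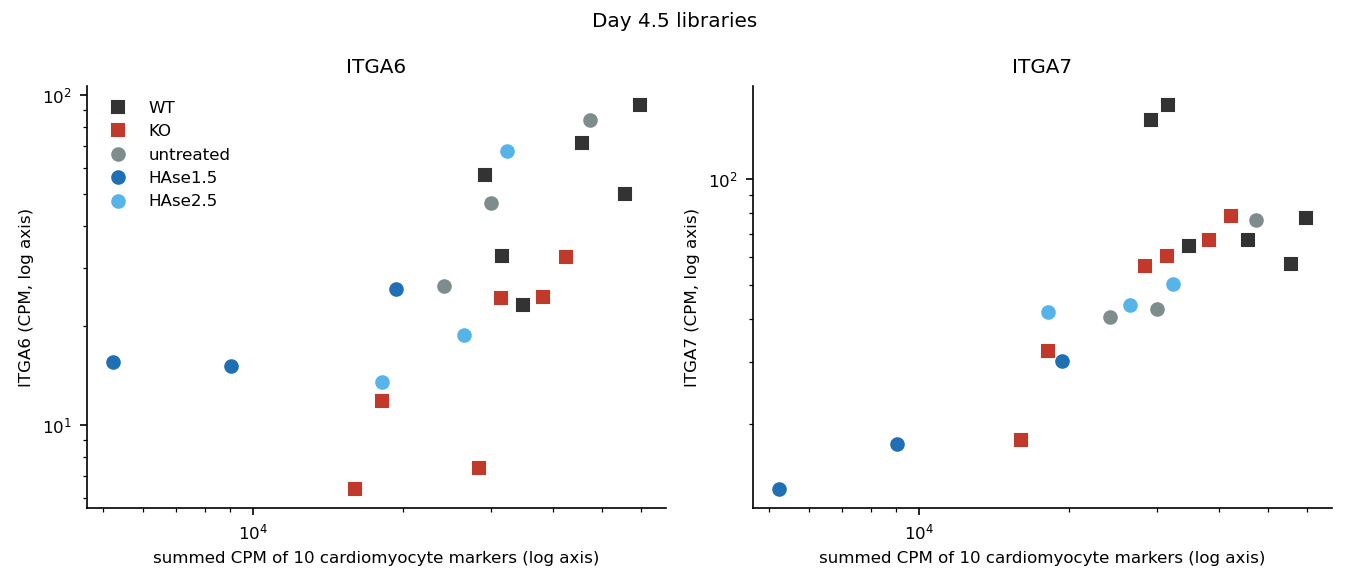
Level of ITGA6 and of ITGA7 (CPM, log axis) against the summed CPM of 10 cardiomyocyte markers (log axis) at day 4.5, with 1 point per library and colours for the groups. HAse1.5 libraries lie at 5230 to 19300 CPM of markers with low ITGA6 and ITGA7, and KO libraries at 16000 to 42300 CPM with ITGA6 at 6.37 to 32.4 CPM.

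Across all 16 groups, the 10 subunits covered a wide range of levels. ITGA5 ran from a mean of 25.1 CPM (WT at day 7.5) to 285 CPM (WT at day 1.5), and ITGB5 from 25.7 CPM (untreated at day 7.5) to 370 CPM (WT at day 1.5). ITGA6 was highest in WT at day 4.5 (54.6 CPM) and lowest in WT at day 1.5 (5.11 CPM), and ITGA7 highest in WT at day 4.5 (96.2 CPM) and lowest after HAse1.5 at day 2.5 (5.00 CPM). ITGA9 was highest in KO at day 1.5 (47.0 CPM) and lowest in KO at day 4.5 (2.67 CPM), and ITGA8 highest in KO at day 2.5 (63.0 CPM) and lowest in KO at day 7.5 (5.90 CPM). ITGAV ran from 33.3 CPM (WT at day 1.5) to 142 CPM and ITGA1 from 8.27 CPM (KO at day 2.5) to 129 CPM, both highest after HAse1.5 at day 7.5. ITGA3 ran from 3.28 CPM (HAse1.5 at day 4.5) to 30.3 CPM (untreated at day 7.5). ITGB1 ran from 112 CPM (WT at day 1.5, block A included) to 259 CPM (HAse2.5 at day 4.5). Without block A the ends of the order differed for 5 members: ITGA7 was then highest in KO at day 7.5 (95.9 CPM, with WT at day 4.5 at 66.6 CPM), ITGA5 after HAse1.5 at day 2.5 (239 CPM) and ITGB5 in KO at day 1.5 (303 CPM). ITGA6 was then lowest after HAse1.5 at day 2.5 (5.28 CPM), and ITGB1 ran from 135 CPM (untreated at day 2.5) to 259 CPM (untreated at day 4.5). In the order of the 16 means, block A included, most neighbours did not differ beyond their spread: of 15 neighbouring pairs, the number more than 1 SD apart was 0 for ITGA6, ITGA8 and ITGB1, 1 for ITGA1, ITGA3, ITGA9 and ITGAV, 2 for ITGA5 and ITGA7, and 3 for ITGB5.

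For the 3 members that passed a KO or enzyme test, the genes of most similar course over the 16 group means were read from 12566 genes, as a description of points that share libraries and controls. ITGA6 ran most closely with REEP1 (r = 0.956), ACTN2 (0.955) and BVES (0.954), and ITGA7 with EEF1A2 (0.986), ITGB1BP2 (0.984) and SLC25A4 (0.981). ITGA9 ran with GMDS (0.914), ETS1 (0.869) and INF2 (0.849). ACTN2 is a protein of the sarcomere and SLC25A4 the ATP carrier of muscle mitochondria.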

How the data were processed

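Per the labels, total RNA of pooled cardioids was made into QuantSeq FWD 3′ mRNA libraries. The authors deposited 1 table of read counts per gene, not normalized. Per the submitters' processing notes, featureCounts of Subread 1.6.2 was used with GRCh38 (hg38). The aligner, strand setting and any molecular identifiers are not given in the sources used here. All 58735 gene IDs occur in GENCODE 29, and 58207 matched a symbol. A further 4 columns belong to no listed sample and were not used.

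Samples were grouped from their titles. Genes were filtered with filterByExpr (minimum count 10) and scaled with TMM factors in edgeR 4.0.16 (R 4.3.3, limma 3.58.1). A robust quasi-likelihood model with 1 mean per group was fitted to each arm, with two-sided tests, Benjamini-Hochberg adjustment over all genes tested and a threshold of 0.05. DESeq2 1.42.0 was an alternative. A joint fit of all 65 libraries set the KO effect against the HAse1.5 effect. The scripts were tested on simulated counts. Enzyme replicate numbers stand for the same 3 lines in every group and so pair the libraries: 15 of 21 such pairs deviated together with r above 0.1 (-0.102 to 0.467). A group was at the floor where none of its libraries had over 3 counts of the gene. Floors cover counting error only.

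The integrin genes, ligand and adaptor lists, markers and tests were chosen with earlier results of these data known. All members are named in every comparison. Of each ligand or adaptor list, genes given values were picked from the at most 4 with the largest change past the threshold in a comparison. Not all of those 4 are named in each comparison. Of likeness, the 3 genes with the highest r are given for members past a threshold.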

Additional observations from a re-analysis of the deposited data

Results flagged for a closer look

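In the 6 groups of 5 or 6 libraries, 60 combinations of a group and a member were looked at for a library far from the others. It was found in 4, where chance gives about 1 in 20. At day 1.5 in WT, ITGA3 stood at 19.3 CPM in WT_R1, a library of block A, and at 5.17 to 6.92 CPM in the others. At day 2.5 in KO, ITGA6 stood at 3.61 CPM in cl4_R1 (block A, the lowest total of all) and at 7.46 to 8.91 CPM in the others. In the same group ITGA9 stood at 14.0 CPM in cl4_R2 and at 23.5 to 28.9 CPM in the others, and leaving that library out raised the ITGA9 difference between KO and WT. At day 4.5 in WT, ITGA9 stood at 10.4 CPM in TNT2 and at 1.56 to 3.30 CPM in the others.

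The KO effect on ITGA6 differed between days (edgeR F-test, adjusted p = 0.0427), with values of 0.99, 0.30, -1.67 and -0.43 at days 1.5, 2.5, 4.5 and 7.5 (log2). Without block A the adjusted p was 0.0544.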

How the results depend on the processing

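No direction of a called value reversed under any alternative. Of 200 pairs of a member and a comparison, 68 that were not called changed sign in an alternative. The number of the 10 members past the threshold changed as follows, and the cause was not tested. Without a filter on low counts it went from 1 to 0 in KO at day 2.5 (ITGA9, edgeR adjusted p = 0.0676), from 0 to 1 (ITGA5), from 1 to 2 and from 0 to 2 (ITGA3 and ITGB5) after HAse1.5 at days 2.5, 4.5 and 7.5, from 0 to 1 between the 2 enzyme starts at day 4.5 (ITGA7, 0.0109), and from 0 to 2 between days 4.5 and 7.5 in untreated cardioids. DESeq2 gave 1 (ITGA3) after HAse1.5 at day 7.5 and 2 (ITGA3 and ITGB5) for that untreated step. On the libraries compared alone the count was 0 in KO and after HAse1.5 at day 4.5, and 1 for the untreated step (ITGA3). Block C alone gave 3 in KO at day 2.5 (ITGA8, ITGA9 and ITGAV) and 0 at day 4.5. Without block A the count was 1 in WT from day 4.5 to 7.5 (ITGA3, 1.70, edgeR adjusted p = 0.0477) and 0 for the KO effect over the days, and in WT from day 2.5 to 4.5 ITGA1 passed in place of ITGA9.

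With each library left out in turn, the count ran from 0 to 1 in KO at day 2.5, from 1 to 1 at day 4.5, from 2 to 4 and 5 to 6 for the first steps of WT, from 0 to 2 and 0 to 1 after HAse1.5 at days 4.5 and 7.5, from 0 to 1 after HAse2.5 at day 7.5 and between the enzyme starts at day 4.5, and from 3 to 3 and 0 to 2 for the untreated steps.

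With the replicate block (the line), ITGA5 passed after HAse1.5 at day 2.5 (adjusted p = 0.0375) and ITGA1 in the first untreated step, and it changed no other call of a member in the enzyme arm. In the genotype arm the labels do not pair the repeats: 9 of 13 same-numbered pairs deviated together with r above 0.1 (0.249 to 0.787 over the 6 of block A and -0.0742 to 0.253 over the 7 of block B). There the replicate block moved no count of members by over 1.5 times (ITGA6 in KO at day 4.5, adjusted p = 0.000623). Over all genes it moved the calls in KO from 137, 516 and 48 to 292, 829 and 115 at days 2.5, 4.5 and 7.5. Over the alternatives, calls over all genes ran from 66 to 535, 125 to 899 and 27 to 193 at those days, from 61 to 290, 199 to 662 and 145 to 713 after HAse1.5, from 0 to 201 and 3 to 377 after HAse2.5, from 2 to 296 and 1 to 80 between the enzyme starts, and from 138 to 852 and 276 to 1957 for the last steps of WT and untreated cardioids (main 372 and 814). The KO effect over the days gave 87 to 416 (main 93), and its difference from the enzyme effect 10 to 42, 35 to 156 and 12 to 142 (main 13, 38 and 13). With TMM-scaled CPM, 6 of 160 group levels moved by more than 1 SD.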
